A study of Homo sapiens with 2 samples.

Results

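In H1299 cells, a human non-small cell lung cancer line, 1648 of the 27916 listed H3K18la peaks on chromosomes 1 to 22 lay at an end of a long noncoding RNA (lncRNA) gene and away from protein-coding gene ends (5.90%, exact 95% binomial interval 5.63 to 6.19). H3K18la is histone H3 lactylated at lysine 18, a modification fed by lactate. A peak was taken when it overlapped the window of 1000 bp either side of the start or end of a RefSeq gene of biotype lncRNA by 1 bp or more and was more than 3000 bp from both ends of every protein-coding gene. These are called lncRNA-end peaks here. The list as a whole, which also holds chromosome X, had 28695 peaks.

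The series holds 2 libraries of untreated H1299 chromatin, 1 precipitated with an antibody against H3K18la and 1 labelled as input, of which the peak list of the first was used. H1299 is an established line that lacks p53, and with 1 library in each group there is no replicate and no test between conditions. The design text speaks of IgG where the sample label speaks of input, so the control behind the peak calls is not settled, and the depth of both libraries is unknown. The peaks' own names start with NC, which no label explains, so the list belongs to the antibody library by its label only. Fold enrichment is the authors' value for each peak, the ratio of the precipitated library to the caller's local background averaged over the peak. All intervals are exact binomial ones at 95% and cover counting error only.

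LncRNAs are transcripts without a long open reading frame. Some act in the nucleus as scaffolds, some are the precursors of microRNAs or small nucleolar RNAs, and for others only the act of transcription from their promoter is thought to matter. Their genes carry the histone marks of active promoters when they are transcribed, and many are active in few cell types.

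The promoters below show the range of sequences at the 5′ ends. They run from 250 bases before to 50 after the gene's start, are taken from RefSeq (GRCh38.p14), and are written 5′ to 3′ on the gene's strand. Capitals mark matches, on either strand, to the GC box GGGCGG, the CCAAT box CCAAT, the TATA box TATAAA, the AP-1 motif TGANTCA and the E-box CACGTG. The first 4 overlapped a lncRNA-end peak and are rich in CpG, the next 2 overlapped one and are poor in CpG, and the last 2 had none at the 5′ end.
MIRLET7A1HG (chr9:94166008-94166307, plus strand): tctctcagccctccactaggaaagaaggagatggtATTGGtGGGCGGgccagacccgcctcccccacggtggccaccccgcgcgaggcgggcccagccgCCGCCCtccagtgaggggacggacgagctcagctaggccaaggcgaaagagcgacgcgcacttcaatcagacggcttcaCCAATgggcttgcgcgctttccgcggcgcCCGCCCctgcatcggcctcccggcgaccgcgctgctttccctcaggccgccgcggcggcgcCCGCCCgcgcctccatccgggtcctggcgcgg
MIR17HG (chr13:91347437-91347736, plus strand): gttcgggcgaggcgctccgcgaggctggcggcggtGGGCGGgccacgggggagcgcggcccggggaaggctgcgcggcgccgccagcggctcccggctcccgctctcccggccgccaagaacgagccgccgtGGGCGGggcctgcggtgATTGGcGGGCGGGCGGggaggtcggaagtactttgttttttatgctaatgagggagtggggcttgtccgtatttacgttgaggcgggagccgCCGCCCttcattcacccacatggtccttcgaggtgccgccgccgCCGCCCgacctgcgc
NORAD (chr20:36050911-36051210, minus strand): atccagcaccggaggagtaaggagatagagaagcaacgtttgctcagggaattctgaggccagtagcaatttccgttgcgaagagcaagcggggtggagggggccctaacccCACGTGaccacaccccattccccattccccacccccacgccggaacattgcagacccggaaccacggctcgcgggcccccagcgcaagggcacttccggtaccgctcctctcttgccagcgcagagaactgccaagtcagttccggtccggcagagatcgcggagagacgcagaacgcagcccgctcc
MALAT1 (chr11:65497488-65497787, plus strand): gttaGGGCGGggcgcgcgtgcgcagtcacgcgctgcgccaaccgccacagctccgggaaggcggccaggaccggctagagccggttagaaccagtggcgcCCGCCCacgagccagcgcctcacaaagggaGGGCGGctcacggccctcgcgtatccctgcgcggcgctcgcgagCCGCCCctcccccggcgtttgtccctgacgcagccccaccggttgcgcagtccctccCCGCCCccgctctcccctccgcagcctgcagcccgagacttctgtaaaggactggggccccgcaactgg
LUCAT1 (chr5:91314353-91314652, minus strand): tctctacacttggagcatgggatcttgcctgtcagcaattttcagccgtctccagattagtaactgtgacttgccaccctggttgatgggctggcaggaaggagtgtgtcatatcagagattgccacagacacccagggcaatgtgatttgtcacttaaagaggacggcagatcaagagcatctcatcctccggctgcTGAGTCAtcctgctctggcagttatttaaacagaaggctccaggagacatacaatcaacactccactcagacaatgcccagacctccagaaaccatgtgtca
LINC01629 (chr14:76959388-76959687, plus strand): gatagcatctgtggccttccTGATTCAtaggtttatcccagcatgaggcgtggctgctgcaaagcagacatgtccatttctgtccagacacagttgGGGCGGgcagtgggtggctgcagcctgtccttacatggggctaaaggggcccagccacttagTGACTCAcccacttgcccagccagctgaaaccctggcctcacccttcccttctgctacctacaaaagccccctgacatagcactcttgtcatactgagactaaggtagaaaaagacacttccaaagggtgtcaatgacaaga
LINC00511 (chr17:72640423-72640722, minus strand): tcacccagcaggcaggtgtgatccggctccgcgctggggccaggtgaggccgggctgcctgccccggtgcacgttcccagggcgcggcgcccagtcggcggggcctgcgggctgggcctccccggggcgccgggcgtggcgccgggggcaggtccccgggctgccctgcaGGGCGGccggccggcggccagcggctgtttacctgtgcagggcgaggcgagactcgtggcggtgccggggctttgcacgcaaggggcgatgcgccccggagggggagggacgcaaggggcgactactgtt
H19 (chr11:2001217-2001516, minus strand): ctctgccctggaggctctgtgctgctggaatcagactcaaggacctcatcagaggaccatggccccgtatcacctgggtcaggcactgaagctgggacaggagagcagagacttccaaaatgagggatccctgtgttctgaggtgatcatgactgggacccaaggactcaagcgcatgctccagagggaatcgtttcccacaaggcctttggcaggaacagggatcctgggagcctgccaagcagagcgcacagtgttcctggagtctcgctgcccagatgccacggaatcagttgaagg
MIR17HG holds 6 GC boxes and 1 CCAAT box, with 42 CpG in 300 bases, which is 1.07 times the number its base composition predicts. MIRLET7A1HG has 4 GC boxes, 2 CCAAT boxes and 38 CpG, MALAT1 has 5 GC boxes and 37 CpG, and NORAD has 23 CpG, no GC box and 1 E-box. LUCAT1 has only 3 CpG and 1 AP-1 match, and LINC01629 has 2 CpG, 2 AP-1 matches and 1 GC box. LINC00511 is rich in CpG (35), with 1 GC box, and had no peak at an end, and H19 has 6 CpG and none of the motifs. A match is a description of the letters and not a binding site.

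The lncRNA-end peaks were weaker than peaks at protein-coding ends and stronger than peaks away from both. Their median fold was 4.62 (quartiles 3.60 and 6.02), compared with 5.47 (4.25 and 7.05) for the 10374 peaks within 1000 bp of a protein-coding end. The 14541 peaks more than 3000 bp from coding ends and at no lncRNA end had a median of 3.84 (3.28 and 4.79). A fold of 10 or more was reached by 52 lncRNA-end peaks (3.16%, 2.37 to 4.12), against 2.96% of all peaks, so that this share was near the background. It was 5.93% (5.48 to 6.40) at coding ends and 0.860% (0.716 to 1.02) away from both. A -log10 q of 5 or more was reached by 1127 (68.4%, 66.1 to 70.6), against 63.4% of all peaks.

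Wide peaks were more frequent among them. A width of 5000 bp or more was seen for 96 lncRNA-end peaks (5.83%, 4.74 to 7.07), against 2.46% of all peaks, 2.29% (2.01 to 2.60) at coding ends and 2.28% (2.05 to 2.54) away from both. The median width was 1414.5 bp, against 1379 and 1121 bp. A wider peak has more chance of touching a window, and where the midpoint had to lie in the window the share of wide peaks was 3.50%.

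**Figure D1:**
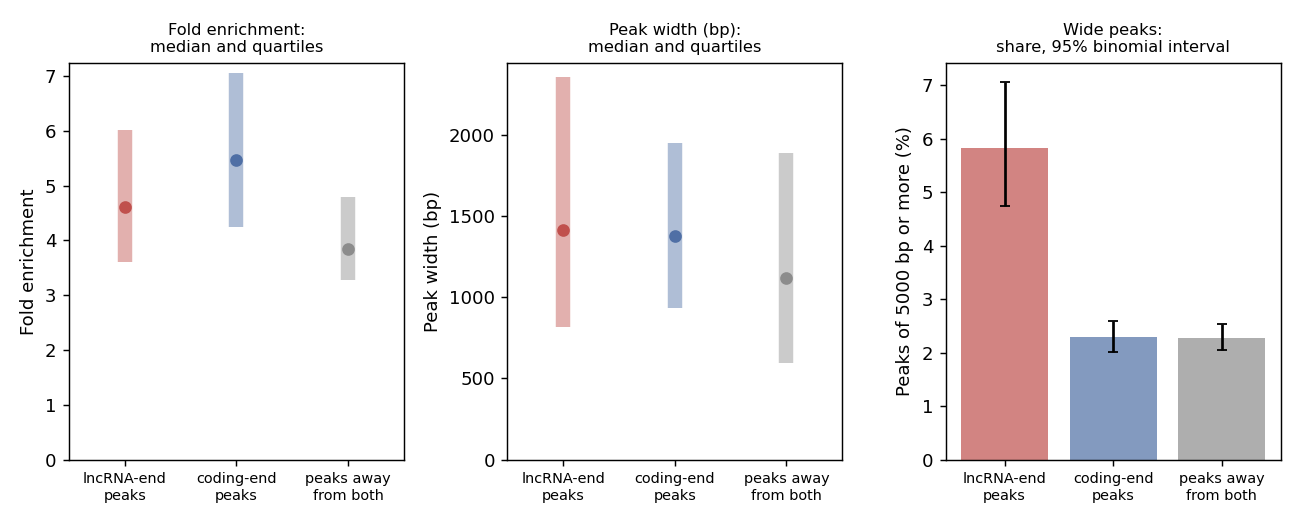
Fold enrichment and width of lncRNA-end peaks, coding-end peaks and peaks away from both (points are medians, bars run between the quartiles), and the share of peaks of 5000 bp or more in percent (error bars are 95% binomial intervals). The lncRNA-end peaks lie between the other groups in fold, with a median of 4.62, and hold the larger share of wide peaks, 5.83%.

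Median folds were similar at each distance from the next protein-coding end, at 4.57 for the 385 peaks at 3 to 10 kb, 4.77 for 480 at 10 to 30 kb, 4.60 for 486 at 30 to 100 kb and 4.46 for 297 beyond 100 kb. The peaks away from both had 3.89, 3.91, 3.81 and 3.76 in the same order, lower at each distance. At the limit of the rule, the nearest peaks inside were those of LINC02993 (6.64-fold, 3020 bp from ZEB2), LOC124901776 (3.79-fold, 3035 bp from KCNH2) and LIN28B-AS1 (6.79-fold, 3047 bp from LIN28B). Just outside lay the peaks of LOC107986086 (4.63-fold, 2988 bp from WDR82), LOC105370886 (2.996-fold, 2971 bp from THSD4) and MAP6-AS1 (6.88-fold, 2970 bp from MAP6).

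At gene level, peaks sat at the 5′ end. The promoter table gave a strand for 11145 of 17525 lncRNA genes, with none on chromosome 8. An end is called isolated when it lies more than 4000 bp from every protein-coding gene end, so that its whole window obeys the rule. Of lncRNA genes longer than 10000 bp, 423 of 4023 isolated 5′ ends had a lncRNA-end peak (10.5%, 9.58 to 11.5) and 131 of 4811 isolated 3′ ends (2.72%, 2.28 to 3.22). For protein-coding genes longer than 10000 bp with no other coding end within 4000 bp, any listed peak was counted. These genes had 59.3% (58.2 to 60.3) of 7959 at the 5′ end and 2.93% (2.57 to 3.33) of 7847 at the 3′ end. Ends of unknown strand had a peak in 4.78% of 5478 lncRNA and 27.8% of 3947 coding cases. The intervals of the 3′ shares of both kinds of gene overlapped, and those of the 5′ shares did not. Among 3783 lncRNA genes with both ends isolated and a known strand, 343 had a peak at the 5′ end only, 63 at the 3′ end only and 24 at both.

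The peak lay over the start rather than beside it. A peak covered the lncRNA start itself at 7.58% of isolated 5′ ends, 7.78% were covered 250 bp downstream, 3.65% at 1000 bp upstream and 3.80% at 1000 bp downstream. At 3000 bp on either side the share was 1.52 and 1.57%. At 3′ ends it was 1.33%, with no rise at the end. Coding starts were covered in 48.3% of cases, with the highest share, 55.4%, also 250 bp downstream. On the coding side it fell to 10.2% at 1000 bp upstream and 22.3% at 1000 bp downstream.

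**Figure D2:**
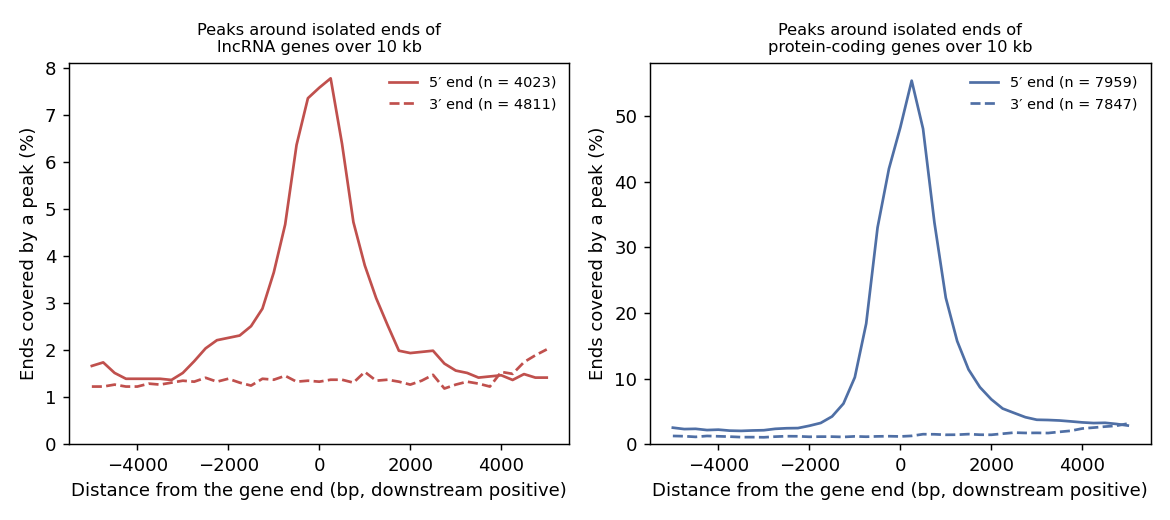
Percent of isolated ends of genes over 10000 bp that were covered by any listed peak, against the distance from the end in bp with downstream positive (solid: 5′ ends, dashed: 3′ ends, on different vertical scales). LncRNA 5′ ends peak at 7.78% and coding 5′ ends at 55.4%, both 250 bp downstream, and neither kind has a maximum at the 3′ end.

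CpG-rich promoters carried the mark most often. A promoter is called CpG-rich when its 300 bases have at least 50% G and C and a CpG observed-to-expected ratio of at least 0.6. Of 7847 isolated lncRNA 5′ ends with a listed promoter, 882 had a lncRNA-end peak, 11.2% of them all. The share was 43.9% (40.5 to 47.3) of 841 CpG-rich promoters and 7.32% (6.72 to 7.96) of the 7006 others. It went from 5.01% (4.30 to 5.79) where the ratio was under 0.2 to 52.5% (47.8 to 57.1) where it was 0.8 or more. The CpG-rich ones also had a higher median fold (5.37 against 4.63). Of the 882 promoters with a peak, 513 were not CpG-rich.

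In the same range of CpG content, protein-coding promoters had peaks more often. Isolated coding 5′ ends with a ratio of 0.8 or more had a peak in 84.4% (83.2 to 85.5) of 3636 cases, and those at 0.4 to 0.6 in 44.0% (40.3 to 47.7), against 13.6% (11.5 to 16.04) of lncRNA promoters. Under 0.2, the shares were 7.21% (5.68 to 8.99) and 5.01% (4.30 to 5.79), with overlapping intervals. With lncRNA promoters kept only where they lay over 2000 bp from every listed coding start, 44.2% (39.0 to 49.5) of 362 had a peak at 0.8 or more.

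**Figure D3:**
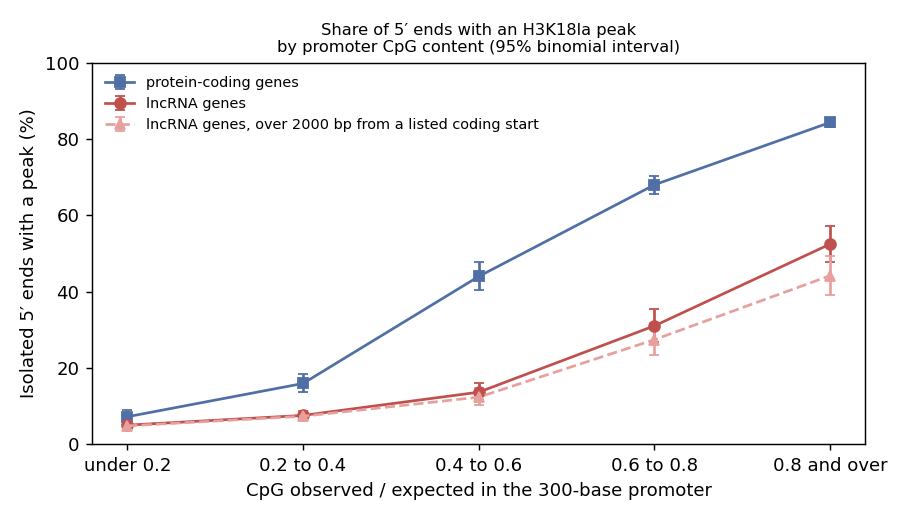
Percent of isolated 5′ ends with a peak against the CpG observed-to-expected ratio of the 300-base promoter (points with 95% binomial intervals; squares: protein-coding, circles: lncRNA, triangles: lncRNA promoters over 2000 bp from every listed coding start). The share increases with CpG content in each group, to 84.4%, 52.5% and 44.2%. The points of coding genes lie above those of lncRNA genes in each bin, with overlapping intervals in the lowest.

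Among the motifs, the GC box, the element bound by SP and KLF factors, was present at 40.8% (37.6 to 44.1) of lncRNA promoters with a peak and 11.6% (10.9 to 12.4) of those without. The AP-1 motif, bound by FOS and JUN proteins, was found in 17.0% (14.6 to 19.7) and 11.6% (10.9 to 12.4). The TATA box went the other way, with 10.8% (8.80 to 13.01) and 19.2% (18.3 to 20.1). CCAAT was in 33.4 and 36.6%, and the E-box in 6.92 and 4.38%. Over all 35116 listed promoters the shares were 44.95% for the GC box, 7.71% for AP-1, 11.5% for TATA, 34.6% for CCAAT and 7.26% for the E-box. A GC box overlaps a CpG, so it is not separate from CpG content.

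A part of the strongest lncRNA-end peaks lay at internal starts of protein-coding genes, which the rule on outer gene ends does not see. Outside chromosome 8, 180 of 1581 were within 1000 bp of a listed start of a coding gene (11.4%, 9.86 to 13.1), against 5.43% (5.05 to 5.82) of the peaks away from both. Of peaks at 10-fold or more it was 16 of 50 (32%, 19.5 to 46.7). Some coding genes outside chromosome 8 are also missing from the promoter table, so these counts cover listed starts only. These 180 peaks had a median fold of 5.94, the remaining 1468 (chromosome 8 included, where coding starts were not analysed here) one of 4.49. By name, divergent genes had 10 of 28 such peaks (35.7%, 18.6 to 55.9), antisense genes 73 of 253 (28.9%), LOC genes 92 of 932 (9.87%) and LINC genes 1 of 287 (0.348%). Inside a protein-coding gene lay 562 lncRNA-end peaks (34.1%, 31.8 to 36.4), against 42.2% of all peaks. The share was 56.3% (55.5 to 57.1) for the peaks away from both and 21.1% (20.3 to 21.9) at coding ends.

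The highest values show both kinds of site. LOC401261 (NCBI gene 401261) had 20.2-fold at chromosome 6, 42780525 to 42784435, and the highest significance of the set (-log10 q 136.6). The peak lay inside BICRAL, a subunit gene of the BAF chromatin remodelling complex, and over a listed start of that gene, as did the peak of HDLBP-AS1 (16.7-fold, chromosome 2, 241271714 to 241273204) at HDLBP and that of EPC1-AS1 (16.4-fold, chromosome 10, 32346492 to 32347830) at EPC1. The others of this kind among the 20 of highest fold were at LOC124904886 in NOL4L (12.4-fold), LINC02939 in LOC124905135 (12.4-fold), BRWD1-AS1 and BRWD1-AS2 in BRWD1 (12.1-fold), LOC124901081 in MATR3 (11.9-fold) and LOC100134368 in PGAP6 (11.9-fold). That made 8 of the 19 peaks outside chromosome 8.

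The remaining 11 lay at no listed coding start. The promoter table does not list every coding gene outside chromosome 8, so an unlisted start could not be seen. The DLG5-AS1 peak, for example, had as its nearest listed coding start that of POLR3A, 102044 bp away. LINC01800 had 15.8-fold at chromosome 2, 64864468 to 64865674, and its nearest coding end, that of SLC1A4, was 122805 bp away. NDST1-AS1 had 14.8-fold (chromosome 5, 150485214 to 150487556), 10223 bp from the heparan sulfate sulfotransferase gene NDST1. LOC124903824 had 13.6-fold, 3493 bp from the end of SKI, and LOC124907997 had 13.6-fold in a peak of only 742 bp, 10601 bp from B3GNT7. LINC01816 followed with 13.5-fold, and DLG5-AS1 with 12.8-fold inside DLG5. OLMALINC (12.7-fold, 5939 bp wide, chromosome 10, 100369935 to 100375873) is a neighbour of SCD, the stearoyl-CoA desaturase gene of fatty acid synthesis, whose end was 5109 bp off. The others were LOC124904653 near the AP-1 gene JUND (12.2-fold), LOC124904071 near the Polycomb gene CBX8 (12.2-fold), HEIH with LINC00847 inside ZFP62 (12.1-fold) and NORAD. On chromosome 8, ERICD inside AGO2 had 12.2-fold.

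NORAD (NCBI gene 647979), an abundant cytoplasmic RNA that binds Pumilio proteins and guards chromosome stability, had 12.03-fold at chromosome 20, 36050215 to 36051575, over its 5′ end. FLJ46875 (11.6-fold, chromosome 2, 156341022 to 156343210) was also among the 5 of highest significance, with a -log10 q of 75.4. It lay 8301 bp from the nuclear receptor gene NR4A2.

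The widest listed peak on chromosomes 1 to 22 was at MALAT1 (NCBI gene 378938), the abundant RNA of nuclear speckles. It had 26015 bp and 9.21-fold (chromosome 11, 65476155 to 65502169), from position -21583 to 4431 bp relative to the gene's lower coordinate, which is its 5′ end. It also covered ENEMAL and LINC02736. A second peak of 3976 bp and 3.85-fold lay over the 3′ end. The neighbouring NEAT1, the scaffold of paraspeckles, had a peak of almost the same fold (9.20, 12762 bp) over its end of lower coordinate, but this came within 2643 bp of the coding gene FRMD8 and so is not counted by the rule.

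**Figure D4:**
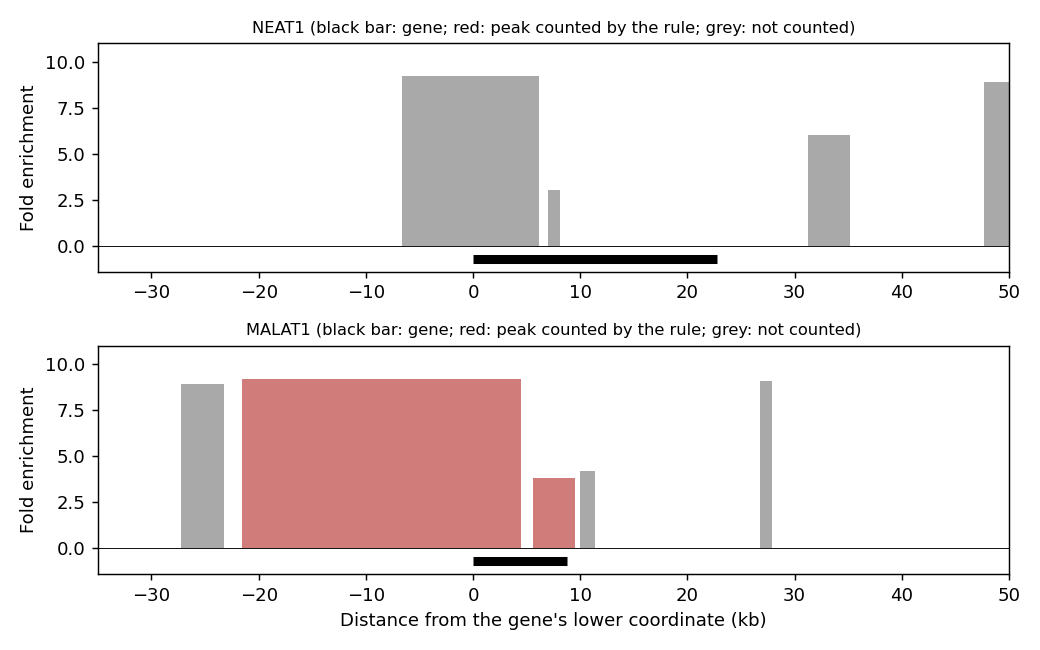
Listed peaks around NEAT1 and MALAT1, with the distance from each gene's lower coordinate in kb on the horizontal axis and fold enrichment on the vertical axis (bar width is peak width, black bars are the genes, red peaks are counted by the rule and grey ones are not). The MALAT1 peak of 26015 bp starts at -21583 bp, in front of the gene, and the NEAT1 peak of 12762 bp has 9.20-fold.

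The other wide peaks were mostly of moderate fold. LOC124902020 had 19793 bp and 5.47-fold, 424059 bp from MYC, and LOC124902040 inside PLEC had 18947 bp and 9.85-fold, both on chromosome 8. LOC112268009 had 15700 bp inside the cell cycle kinase gene CDK6 (5.32-fold), over its 3′ end. LOC105374118 had 12704 bp (8.90-fold, near AMOTL2), LINC01843 11711 bp (8.68-fold, near JADE2) and LINC01629 11079 bp (5.74-fold). LINC00472 (10490 bp, 4.26-fold), RUNX1-AS1 inside RUNX1 (10262 bp, 5.83-fold) and DST-AS1 inside DST (10189 bp, 5.26-fold) carried theirs over the 3′ end. Each of these genes also had a lncRNA-end peak at its 5′ end, with 7.65-fold, 4.65-fold and 9.44-fold in the same order. The wide RUNX1-AS1 peak also lay over a listed start of RUNX1. The control background solved from fold and p was higher in the 5 Mb bins of LOC124902040 and ERICD (median 7.07) and of LINC01629 (7.01) than over all peaks (3.87). Other named peaks also lay in bins above that value, such as LOC124904886 (6.97) and LOC401261 (6.24). The part of this background in the values of these peaks was not tested.

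Well-studied lncRNAs of cancer had a lncRNA-end peak in 14 of the 44 cases with an isolated end (31.8%, 18.6 to 47.6), against 10.2% of all 15721 isolated lncRNA genes. The list was set by hand from well-known genes, so nothing particular to it is read from this share. Beside NORAD and MALAT1, DLEU2, which hosts miR-15a and miR-16-1, had 9.83-fold and its neighbour DLEU1 6.58-fold. DANCR had 6.48-fold, LINC01116 5.96-fold in a peak shared with LINC01117, and the stress-induced LUCAT1 5.66-fold over 5127 bp. PVT1 had 6.23-fold at its end nearer MYC. The near-identical genes MIR4435-2HG and CYTOR had 5.09-fold over 495 bp and 4.55-fold over 546 bp, and how reads were placed between these copies was not tested. The counted peaks of LINC01234 (3.97-fold), LINC00460 (3.50-fold), LINC-PINT (2.95-fold, at its 3′ end) and AFAP1-AS1 (2.94-fold) were the weakest, all under a -log10 q of 5. LINC-PINT also had a 6.35-fold peak at an end that was too near a coding end to count, and 16 peaks in its body. No peak lay at an end of HOTAIR, H19, MEG3 and UCA1, among others. A further 9 of the list, such as GAS5 (6.16-fold) and CRNDE (6.43-fold), had one that was too near a coding end to count.

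Among p53-linked lncRNAs, 3 of 7 with an isolated end had a peak (42.9%, 9.90 to 81.6), in this line without p53. These were NORAD, MIR34AHG (4.34-fold, shared with LNCTAM34A) and LINC-PINT, and none was found at PURPL, PANDAR and MEG3. A further 3, NEAT1 (9.20-fold), DINOL (6.32-fold) and TP53TG1 (3.29-fold), had a peak too near a coding end to count. Of hypoxia-linked lncRNAs, 2 of 6 had a counted peak (33.3%, 4.33 to 77.7), MALAT1 and LUCAT1. Another 4, HIF1A-AS1 (11.4-fold), NEAT1 (9.20-fold), MIR210HG (7.09-fold) and HIF1A-AS3 (4.25-fold), had a peak too near a coding end to count. Of imprinted lncRNAs, which are read from the chromosome of one parent, 2 of 10 had a counted peak (20%, 2.52 to 55.6). KCNQ1OT1, the antisense transcript inside KCNQ1 that silences its neighbours in cis, had 11.2-fold over 574 bp (chromosome 11, 2700239 to 2700812), and MEG9 had 3.12-fold at its 3′ end, with a -log10 q of 2.03. AIRN, IPW, PEG13 and SNHG14 had none. The 10.2% of all isolated lncRNA genes lies within the interval of each of these lists, so their counts cannot be told from it. NORAD, LINC-PINT, MALAT1 and LUCAT1 were also counted in the cancer list.

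The lists for other cell types and for development are small, and their counts cannot be told from the 10.2% of all isolated lncRNA genes. None of the 5 developmental genes with an isolated end had one, among them FENDRR and HOTAIR, while NKX2-1-AS1 (3.90-fold), HOTTIP (3.37-fold) and HOXA11-AS (3.52-fold) had a peak too near a coding end to count. Nor did any of the 5 neural genes, such as SOX2-OT and RMST. A count of 0 of 5 allows a share of up to 52.2%. Within their bodies, SOX2-OT had 4 peaks of up to 4.46-fold and MIAT 3 of up to 4.20-fold, and DLX6-AS1 (8.98-fold) and LINC01551 (7.58-fold) had 1 each. The lymphoid and myeloid list had 2 of 10, MIR155HG with 3.74-fold over 293 bp and LINC00926 with 3.54-fold, both under a -log10 q of 5. The liver list had 1 of 5, LINC01554, whose 5.91-fold peak also lay at LOC105379091.

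By kind of name, host genes of small RNAs had the highest shares, with wide intervals. Of 22 small nucleolar RNA host genes with an isolated end, 10 carried one (45.5%, 24.4 to 67.8), with SNHG26 at 7.20-fold, SNHG32 at 6.34-fold, SNHG33 at 5.82-fold and SNHG16 at 5.76-fold. The other 6 ran from 4.64-fold (SNHG5) to 3.51-fold (SNHG30), and the median of the class, 4.58-fold, was no higher than the 4.77-fold of all isolated lncRNA genes with a peak. MicroRNA host genes had 18 of 72 (25%, 15.5 to 36.6), and other named genes, whose interval lay within that one, 105 of 547 (19.2%, 16.0 to 22.8). Antisense genes had 240 of 1545 (15.5%, 13.8 to 17.4), LINC genes 281 of 2212 (12.7%, 11.3 to 14.2) and uncharacterised LOC genes 922 of 10878 (8.48%, 7.96 to 9.02). Divergent genes, which start beside a coding gene, had 25 of 347 (7.20%, 4.72 to 10.5) and intronic or overlapping genes had 6 of 98 (6.12%, 2.28 to 12.9). GNA15-DT (9.58-fold) and HS1BP3-IT1 (6.81-fold) were examples of these 2 groups. A gene was counted when either of its ends was isolated. For a gene that starts beside a coding gene this may be the 3′ end only. In lncRNA genes over 10000 bp, 2.72% of isolated 3′ ends had a peak, against 10.5% of isolated 5′ ends. The classes were not split by end, so their shares may compare unlike ends. By gene length the share went from 10.8% of genes under 2 kb to 10.1% of genes over 50 kb.

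**Figure D5:**
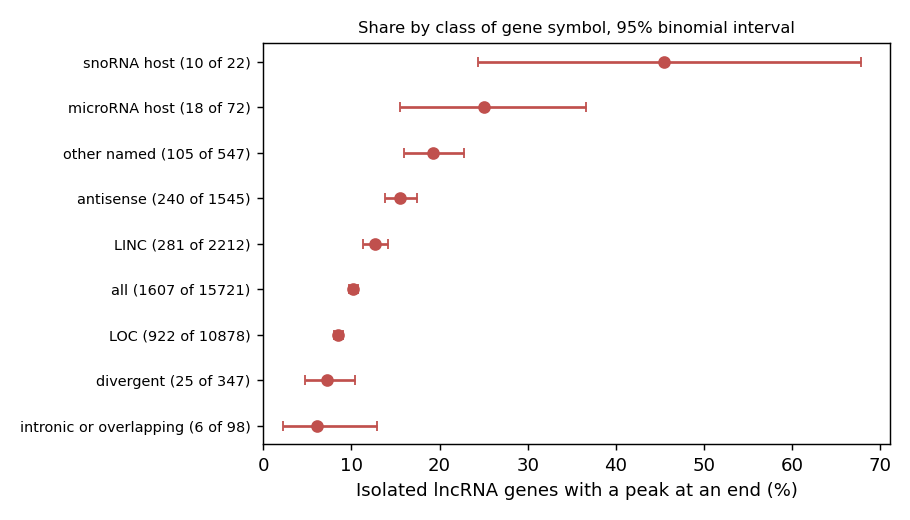
Percent of isolated lncRNA genes with a lncRNA-end peak by class of gene symbol (points with 95% binomial intervals, counts beside each class). Small nucleolar RNA host genes (45.5%) and microRNA host genes (25%) lie to the right of all lncRNA genes together (10.2%).

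The microRNAs of marked host genes are shown since their seeds (bases 2 to 8, in capitals) decide which messages they bind. Sequences are from RefSeq (GRCh38.p14).
let-7a-5p, from MIRLET7A1HG: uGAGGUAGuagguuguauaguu
let-7f-5p, from MIRLET7A1HG: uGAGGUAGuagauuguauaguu
let-7d-5p, from MIRLET7A1HG: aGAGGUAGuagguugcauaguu
miR-17-5p, from MIR17HG: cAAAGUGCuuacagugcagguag
miR-20a-5p, from MIR17HG: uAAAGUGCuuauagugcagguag
miR-18a-5p, from MIR17HG: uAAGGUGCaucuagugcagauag
miR-19a-3p, from MIR17HG: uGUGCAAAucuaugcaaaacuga
miR-19b-3p, from MIR17HG: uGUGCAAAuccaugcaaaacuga
miR-92a-3p, from MIR17HG: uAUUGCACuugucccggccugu
miR-31-5p, from MIR31HG: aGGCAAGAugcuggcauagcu
miR-34a-5p, from MIR34AHG: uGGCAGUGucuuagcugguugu
miR-155-5p, from MIR155HG: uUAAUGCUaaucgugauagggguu
The 3 let-7 members share 1 seed, miR-17 and miR-20a share another, and miR-19a and miR-19b a further one. MIRLET7A1HG (NCBI gene 112903833), host of the growth-restraining let-7 family, had the highest fold of the hosts, 10.97 at chromosome 9, 94165527 to 94167969. MIR17HG (NCBI gene 407975), host of the growth-promoting miR-17-92 cluster, came next with 9.01-fold at chromosome 13, 91347079 to 91349707. Both peaks lay over CpG-rich 5′ ends.

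MIR1915HG had 7.72-fold, MIR9-3HG 7.55-fold at its 3′ end, MIR193BHG 6.77-fold and MIR31HG 6.48-fold over 5476 bp. The MIR9-3HG peak began beyond that end and lay over an end of LOC105371031, and MIR9-3HG had no lncRNA-end peak at its 5′ end. MIR181A2HG and MIR181A1HG, which hold the same miR-181a-5p as each other and the same miR-181b-5p, had 5.91-fold and 5.64-fold. The lowest were MIR34AHG, MIR155HG and MIR194-2HG (3.59-fold, at its 3′ end). No peak of a microRNA or small nucleolar RNA host lay at a listed coding start, in 18 and 11 peaks outside chromosome 8, which allows shares of up to 18.5 and 28.5%.

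The chromosomes differed in the share of their peaks at lncRNA ends and in the share of their lncRNA genes with one. Chromosome 19 had the lowest share of peaks (48 of 1482, 3.24%) and the highest share of isolated lncRNA genes with one (52 of 355, 14.6%, 11.1 to 18.8). Chromosome 17 had 14.2% (11.4 to 17.3) of its isolated lncRNA genes marked. Chromosomes 4 (6.24%, 4.77 to 7.996) and 13 (7.06%, 5.11 to 9.45) had the lowest shares of genes, while chromosome 13 had 9.09% of its peaks at lncRNA ends. Median folds ran from 4.06 on chromosome 14 to 5.38 on chromosome 11.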

How the data were processed

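Chromatin of H1299 cells was precipitated with anti-H3K18la and sequenced. Per the submitters' processing notes, the tools were bcl2fastq 2.17, cutadapt 1.18, Trimmomatic 0.38, Bowtie2 2.3.4.1, Picard, MACS2 (2.1.2 and 2.1.0 are both listed) and ChIPseeker, with hg38 as the build. The deposited broad peak list gives for each peak a fold enrichment (a ratio), a -log10 p, a -log10 q and a score. Caller settings are not given in the sources used here, and no listed q exceeded 0.0472. The list comes from 1 library, whose depth is unknown.

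Peaks were compared with RefSeq genes (GRCh38.p14, 17525 lncRNA and 18973 protein-coding genes on chromosomes 1 to 22), after 718 entries on alternate sequences were left out. Strand and transcript starts came from a table of 35116 promoters. Exons were not used here, so positions are given relative to gene ends. Shares have Clopper-Pearson intervals (scipy 1.17.1). The local control background was solved from fold and p under a Poisson model, which failed for 4006 weak peaks. Medians over bins of 5 Mb are used, and they include the failed peaks at the lowest value allowed, which can pull them down. The distance code was checked on 500 simulated peaks and equalled a brute-force result in 500.

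Genes were named by rule, namely the 20 peaks of highest fold, 10 widest, 5 of highest significance, up to 4 per name class, listed genes, genes with 4 or more such peaks (there were none) and the 3 peaks each side of the distance limit. NEAT1, neighbouring coding genes and further small RNA host genes were named after their values were seen. Members and lists were chosen with earlier results of these data known.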

Additional observations from a re-analysis of the deposited data

How the results depend on the processing

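Each of 8 results was recomputed under 8 planned settings and under 2 that were chosen after seeing the data. Of these values 38 stayed within the main value's interval (counts within 1.5 times), 42 moved out of it and 0 reversed. In the main analysis, 36 of 6274 lncRNA genes over 10000 bp with both ends isolated had a peak at both (0.574%). Strand was not needed for this count, and the shares at both ends below are of such genes. In the same analysis 5.90% of peaks qualified, with a median fold of 4.62, a median width of 1414.5 bp and 10.2% of isolated lncRNA genes marked.

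With a window of 500 bp these were 4.98%, 4.76, 1486.5 bp and 8.82%. With 2000 bp they were 7.34%, 4.44, 1334 bp and 11.7%, with 0.967% of genes marked at both ends. A distance of 1000 bp from coding ends gave 6.53% of peaks, and one of 10000 bp gave 4.52% of peaks and 9.31% of genes. Peaks with a -log10 q of at least 5 gave 6.37%, 5.43, 1831 bp and 7.34% of genes, with 4.61% at 10-fold or more, 36.8% inside coding genes and 0.383% of genes at both ends. Peaks above the median fold of the list gave 923 peaks, 6.61%, 5.77, 1989 bp and 6.09% of genes, with 5.63% at 10-fold or more, 38.03% inside coding genes and 0.239% at both ends. Placing the midpoint in the window gave 4.50% of peaks, 1278 bp, 7.95% of genes and 0.255% at both ends. Without LOC genes there were 721 peaks, 2.58%, with 4.86, 1480 bp, 4.16% at 10-fold or more, 14.1% of genes and 0.956% at both ends. Without peaks at a listed coding start (added) the values were 7.80% of peaks, 4.49, 9.16% of genes and 26.02% inside coding genes. Leaving out bins of high control background (added) moved none. The count at 10-fold or more was 52 in the main analysis, of 1648 peaks. It was also 52 of the 1127 with a -log10 q of at least 5, and of the 923 above the median fold. Those shares differ only in the number of peaks they are taken over. Without peaks at a listed coding start, 1468 of 18819 peaks qualified, against 1648 of 27916. The cause of the other moves was not tested.

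The 5′ share of long lncRNA genes was above the 3′ share in the main analysis and under all 10 settings, for example 6.46% against 1.37% for peaks above the median fold. No paired analysis was possible because each group holds 1 library. With no replicate, an end without a listed peak is not shown to lack the mark.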

Other observations

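In all, 5 stretches held 5 lncRNA-end peaks each with gaps of at most 100000 bp between them, and they were picked after the values were seen. On chromosome 1, from 58758967 to 58904446, the peaks of LOC112268263, LOC101926907, LOC107984961 and LINC02777 (2.96-fold to 6.48-fold) had JUN, the AP-1 subunit gene, as their nearest coding gene. On chromosome 6, from 10402918 to 10481809, those of TFAP2A-AS1, TFAP2A-AS2 and LINC02522 (2.55-fold to 7.55-fold) lay around the transcription factor gene TFAP2A and around GCNT2. On chromosome 1, from 234955446 to 235070086, LNCATV, LINC02971, LINC03108 and LINC01348 had 3.67-fold to 9.39-fold. The other 2 were on chromosome 22, from 46013098 to 46171882, near PPARA (3.34-fold to 12.4-fold, the highest being the LINC02939 peak of the report), and on chromosome 6, from 28837648 to 28989090, with HCG14, HCG15 and LINC01556 (2.59-fold to 4.92-fold).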
